A study of Zea mays with 24 samples.

Results

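The auxin signalling and transport genes of maize examined here were 6 of the 17734 probe sets of the array: the auxin efflux carrier gene PIN1b, the Aux/IAA genes IAA13, IAA17 and IAA24, the auxin-response gene AIR12 and the auxin-binding protein gene abp1. The first 5 were taken by probe identifier from the study's own table of stress-responsive genes, which was drawn up from these arrays, so their changes under stress are not independent evidence. The sixth, abp1, was every probe set that carries this symbol in the annotation of the array, and 1 does. All 6 were found in the values. The gene models given for them are GRMZM2G074267 for PIN1b, GRMZM2G077356 for IAA13, GRMZM2G147243 for IAA17, GRMZM2G115354 for IAA24 and GRMZM2G427451 for AIR12. Names in the RefSeq gene table were matched for 4 of the 6, where IAA13 has the synonym AUX14 and abp1 the synonyms Aux311 and GRMZM2G116204.

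Auxin is made mainly in young shoot tissue and moves from cell to cell, where efflux carriers of the PIN family set the direction of flow. Inside the nucleus, Aux/IAA proteins hold auxin response factors in check, and auxin releases this check by sending the Aux/IAA proteins to the proteasome through TIR1/AFB receptors. Many Aux/IAA genes are themselves switched on by auxin, and in roots this circuit is known for its part in elongation and in lateral root formation.

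The study asked how seedlings of the maize inbred SKV-616 respond to lack of iron, of zinc and of both. All seedlings were grown in hydroponic solution and taken after 12 days in the treatment solution. Root and shoot were each sampled under –Fe–Zn (neither Fe-EDTA nor ZnSO4 given), –Fe (no Fe-EDTA, zinc given), –Zn (no ZnSO4, iron given) and +Fe+Zn (complete solution, the control). Each of the 8 groups has 3 arrays, and since the sources used here do not say how many plants lie behind an array, p-values measure the spread between these arrays. The organs were whole roots and shoots, so fewer cells of a type and less transcript per cell cannot be told apart.

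Each value below is a deposited log2 intensity of 1 probe set on 1 array, so a difference of 1 is a 2-fold change. The lowest value was 2.24 on every array. Between 19.4 and 25.7% of an array's probe sets were exactly at it, while the median of an array lay between 3.84 and 4.21. No pair of arrays was identical. Arrays were put into groups by the labels given with the samples. The study's table does not rest on this assignment in all its columns. Its root –Fe folds of PIN1b, IAA13, IAA17, IAA24 and AIR12 nearly equal those found here for root –Fe–Zn (3.48, 2.18, 1.2, 1.01 and 1.96). Its root –Fe–Zn folds nearly equal those found here for control shoots against control roots (5.34, 9.19, 10.4, 2.13 and 99.2). Its root –Zn folds nearly equal those found here for the same group (1.25, 1.29, 1.81, 2.06 and 1.56). In –Fe shoots it lists a rise of IAA17, where a 2.93-fold fall was found here. For tissue, the leaf markers given below went with the labels used here. For iron, fer1 fell in every group labelled without iron, and by less in –Zn shoots. Labels for zinc supply were not checked by a marker, so which assignment is right there is not settled. A direction given below need not be the one listed there under the same group name. Labels for tissue and iron supply could be set against marker genes. The mean of 21 leaf markers lay between 8.34 and 11.07 on shoot arrays and between 4.1 and 4.82 on root arrays, and 16 of the 21 were higher on every shoot array than on every root array. The ferritin gene fer1, an iron store that falls when iron is short, changed by -2.65 (SE 0.249) in –Fe–Zn roots and by -1.88 (SE 0.249) in –Fe roots. In shoots fer1 changed by -3.52 (SE 0.249) in –Fe–Zn and by -2.61 (SE 0.249) in –Fe. Its fall was not confined to groups without iron. It changed by -0.892 in –Zn shoots (SE 0.249, limma adjusted p = 0.00779) and by 0.291 in –Zn roots (SE 0.249, adjusted p = 0.584). Group means correlated at 0.919 or more within a tissue and at 0.833 or less between tissues (Pearson, across probe sets, which are not independent replicates). The root –Fe–Zn arrays stood apart in control probe sets: the hybridisation control BioB was 12.5 ± 2.29 there, against 5.4 ± 0.937 in control roots (SD, n = 3 each), and the 18S rRNA probe set was 8.95 ± 1.15, against 5.18 ± 0.729. In –Fe–Zn shoots BioB was 6.78 ± 0.52, against 4.64 ± 0.0958 in control shoots, a change of 2.15 (adjusted p = 0.0224). Replicates correlated at 0.952 to 0.987 in root –Fe–Zn and at 0.974 to 0.988 in shoot –Fe–Zn, and at 0.989 or more in the other groups.

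Across the 6 comparisons of a stress with +Fe+Zn of the same tissue, 36 values in all, 5 rises and 9 falls were called at an adjusted p under 0.05 in limma, with Benjamini-Hochberg adjustment over all 17734 probe sets, and 22 values were not called. In shoots, IAA17 fell in every deficiency, IAA13 and IAA24 fell in –Fe–Zn, IAA13 rose in –Zn, and AIR12 and abp1 rose in –Fe. In roots, IAA17 and IAA24 rose in –Zn, IAA13 fell in –Fe, and PIN1b, IAA13 and AIR12 fell in –Fe–Zn. The counts were 3 of 6 called in –Fe–Zn shoots, where 44.6% of all probe sets were called (22.4% higher and 22.2% lower), 3 of 6 in –Fe shoots (33.4% of all, 17% higher and 16.4% lower) and 2 of 6 in –Zn shoots (39.3% of all, 20.3% higher and 19% lower). In roots they were 3 of 6 in –Fe–Zn (28.1% of all, 8.09% higher and 20% lower), 1 of 6 in –Fe (25.6% of all, 14.7% higher and 10.9% lower) and 2 of 6 in –Zn (21.9% of all, 13.4% higher and 8.46% lower). With the rule of the study's methods, which asks for a 2-fold change and a p of under 0.05 without adjustment, 1, 2 and 1 of the 6 were called in –Fe–Zn, –Fe and –Zn shoots (24.4%, 16.2% and 19.2% of all), and 2, 0 and 1 in –Fe–Zn, –Fe and –Zn roots (11.1%, 9.6% and 7.89% of all). Large parts of the transcriptome were called in each comparison, and these counts over 6 genes say nothing particular to auxin genes. The median change of the 6 was -0.3, -0.2 and -0.14 in –Fe–Zn, –Fe and –Zn shoots and -0.5, -0.27 and 0.51 in –Fe–Zn, –Fe and –Zn roots, where the median over all probe sets was 0 each time. The 3 comparisons of a tissue share their control arrays.

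**Figure D1:**
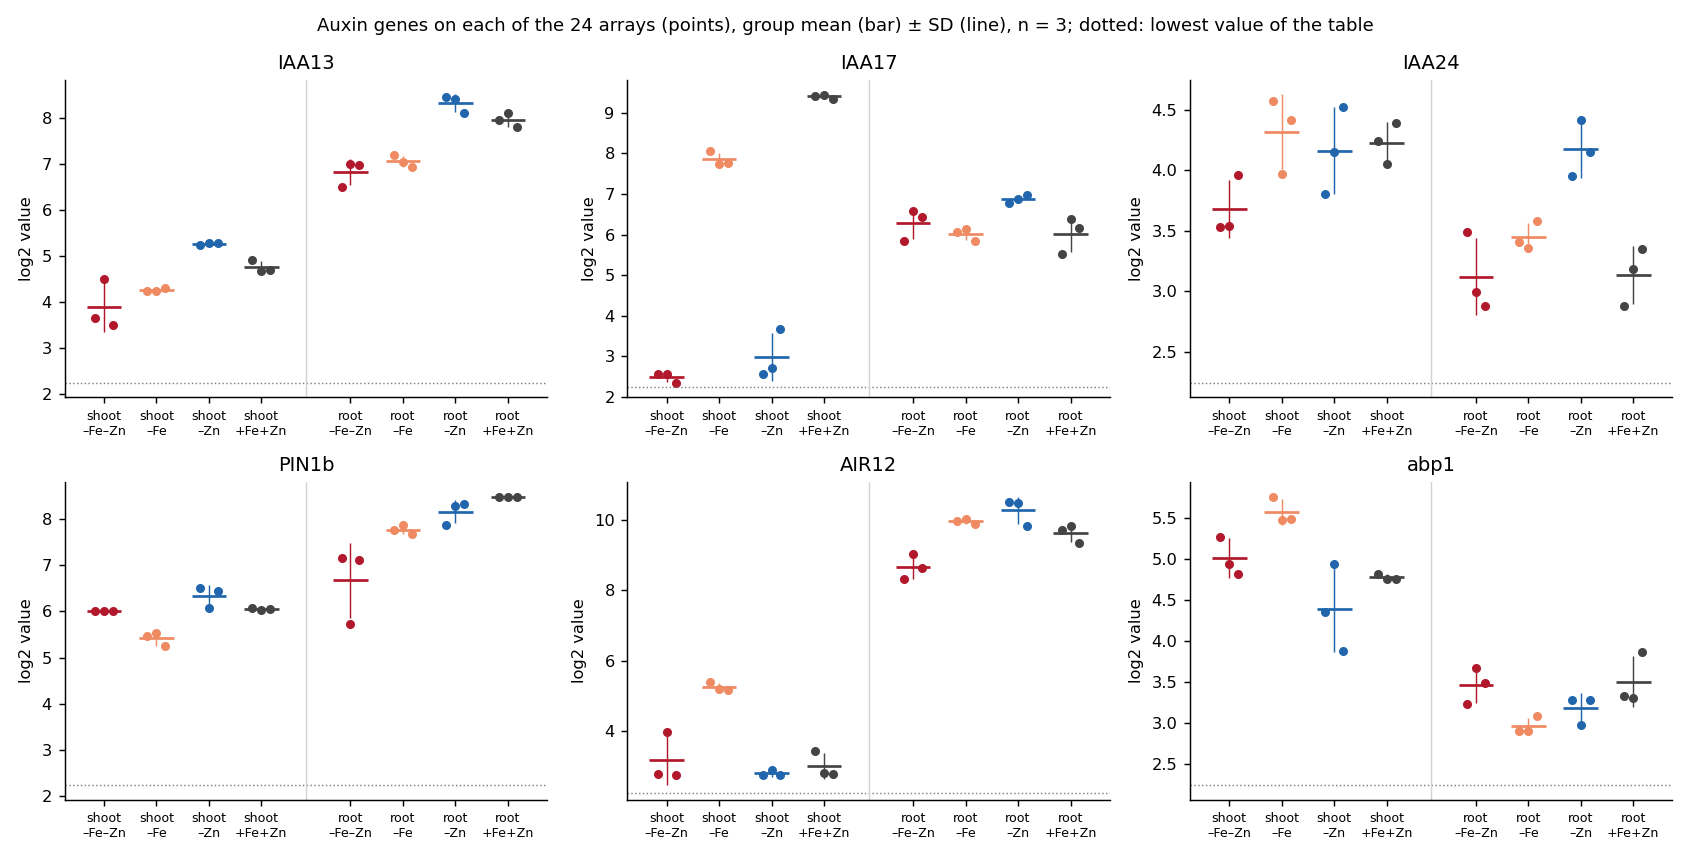
Log2 value of each of the 6 auxin genes on all 24 arrays (points), with the group mean (bar) and SD (vertical line, n = 3), shoot groups on the left and root groups on the right of each panel. The dotted line is the lowest value of the table, 2.24. IAA17 lies near that line in –Fe–Zn and –Zn shoots, and AIR12 is far lower in shoots than in roots in every treatment.

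**Figure D2:**
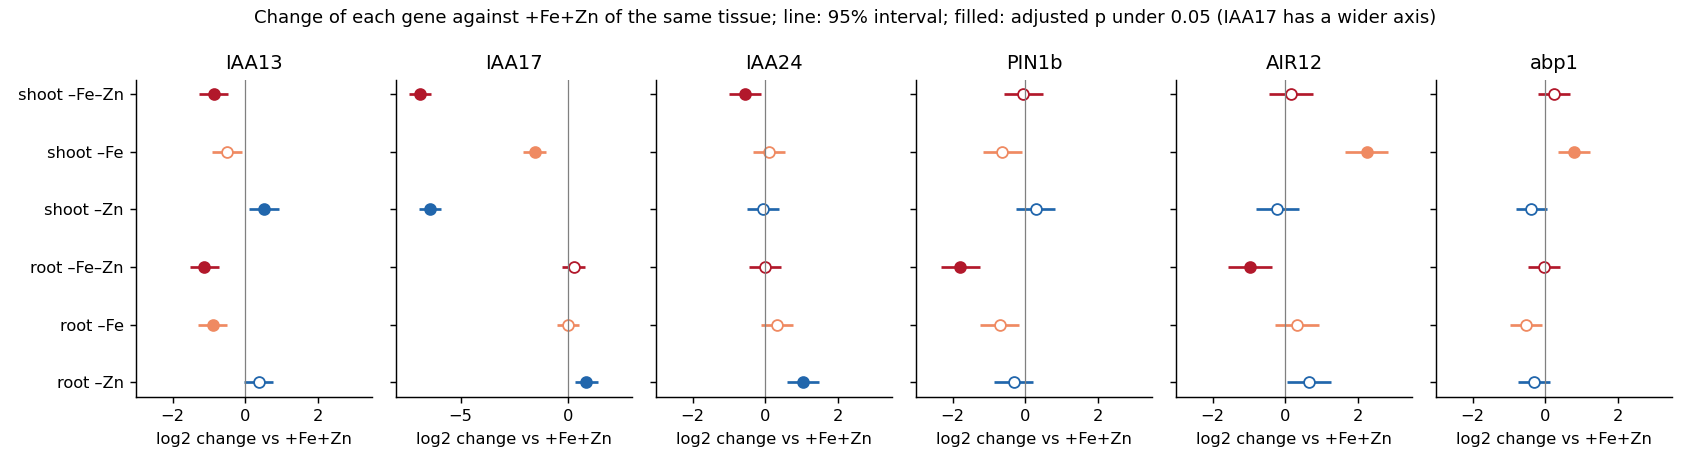
Log2 change of each gene against +Fe+Zn of the same tissue, with its 95% interval from limma. Filled points passed an adjusted p of 0.05 and open points did not. The axis of IAA17 is wider than the others, since this gene fell by 6.91 in –Fe–Zn shoots and by 6.42 in –Zn shoots.

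PIN1b encodes an efflux carrier of the PIN-FORMED family, which passes auxin from cell to cell. In roots its values were 7.16, 5.73 and 7.11 in –Fe–Zn, 7.76, 7.86 and 7.66 in –Fe, 7.86, 8.27 and 8.31 in –Zn and 8.46, 8.46 and 8.48 in the control. Every array of every deficiency lay below every control root array. The fall was 1.80 in –Fe–Zn (SE 0.25, limma adjusted p = 3e-05), and replicate 2 of that group was the lowest of all root arrays. In a fit of the –Fe–Zn and control roots alone, this fall was not called (SE 0.44, adjusted p = 0.089). In –Fe roots the change was -0.71 (SE 0.25), and its adjusted p of 0.05 lay just above the threshold, so it was not called. It was called under 6 of the other settings, among them median centring (adjusted p = 0.034) and a fit without the –Fe–Zn arrays (adjusted p = 0.0005). In –Zn roots the change was -0.32 (SE 0.25, adjusted p = 0.53).

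In shoots PIN1b had 6.0 on all 3 –Fe–Zn arrays, 5.46, 5.54 and 5.25 in –Fe, 6.5, 6.07 and 6.43 in –Zn and 6.07, 6.03 and 6.05 in the control. The –Fe arrays were the lowest and did not overlap the control, but the change of -0.63 (SE 0.25, adjusted p = 0.066) was not called in the model of all 24 arrays. In a fit of the 12 shoot arrays alone, where the spread of the root –Fe–Zn arrays does not enter, it was called (adjusted p = 0.0015). With a covariate for the difference between middle and 3′ control probe sets, which is described with IAA17, the change was -0.04 (SE 0.37, adjusted p = 1). The changes in –Fe–Zn (-0.05, adjusted p = 1) and –Zn (0.29, adjusted p = 0.45) were not called.

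IAA13 encodes a member of the Aux/IAA family of repressors. Its root values were 6.5, 7.0 and 6.99 in –Fe–Zn, 7.19, 7.05 and 6.94 in –Fe, 8.45, 8.42 and 8.11 in –Zn and 7.95, 8.11 and 7.81 in the control. Both groups without iron lay wholly below the control, and the –Zn group lay at or above its highest array. The fall was 1.13 in –Fe–Zn (SE 0.19, adjusted p = 0.0002) and 0.90 in –Fe (SE 0.19, adjusted p = 0.0017), while the change in –Zn was 0.37 (SE 0.19, adjusted p = 0.22).

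The order was the same in shoots, at lower values. IAA13 had 3.66, 4.50 and 3.49 in –Fe–Zn, 4.23, 4.24 and 4.30 in –Fe, 5.24, 5.28 and 5.29 in –Zn and 4.91, 4.68 and 4.69 in the control. It fell by 0.87 in –Fe–Zn (SE 0.19, adjusted p = 0.001) and rose by 0.51 in –Zn (SE 0.19, adjusted p = 0.042), and no array of either stress overlapped the control. In a fit of the –Fe–Zn and control shoots alone, the fall was not called (SE 0.3, adjusted p = 0.09). The change in –Fe was -0.50 (SE 0.19, adjusted p = 0.054), with no overlap either. It was called with the covariate for the control probe sets (-0.93, adjusted p = 0.015) and without the –Fe–Zn arrays (adjusted p = 0.00083), and not in the fit of the shoot arrays alone (adjusted p = 0.12). The rise in –Zn was not called without any 1 of the –Zn replicates 1, 2 and 3 or the control replicates 2 and 3 (0.47 to 0.53, adjusted p = 0.075 to 0.11), nor in the fit of the shoot arrays alone (adjusted p = 0.099).

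A further probe set of the same target sequence, with the suffix x, moved in the same directions as IAA13. In roots it changed by -0.99 in –Fe–Zn (adjusted p = 6.3e-05), by -0.81 in –Fe (adjusted p = 0.00049) and by 0.35 in –Zn (adjusted p = 0.12). In shoots its changes were -0.40 in –Fe–Zn (adjusted p = 0.038), -0.60 in –Fe (adjusted p = 0.0042) and 0.51 in –Zn (adjusted p = 0.011). This suffix marks a probe set with probes that can also match other transcripts, so the pair is not fully separate evidence.

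IAA17, also of the Aux/IAA family, had the largest changes of the 6 genes. In shoots its values were 2.57, 2.57 and 2.34 in –Fe–Zn, 8.05, 7.74 and 7.76 in –Fe, 2.57, 2.71 and 3.66 in –Zn and 9.42, 9.44 and 9.35 in the control. All 3 stress groups lay below the control without overlap, and most arrays of –Fe–Zn and –Zn were close to the lowest value of the table. The fall was 6.91 in –Fe–Zn (SE 0.25, 120-fold, adjusted p = 5.4e-13), 6.42 in –Zn (SE 0.25, 85.7-fold, adjusted p = 2.6e-12) and 1.55 in –Fe (SE 0.25, 2.93-fold, adjusted p = 7.1e-05). These folds are those of the deposited values, and near the floor such values no longer follow the amount of transcript. The array mean of the 21 leaf markers was also lower in the same groups, at 8.34 to 9.09 in –Fe–Zn and 9.44 to 9.7 in –Zn, and not in –Fe (10.91 to 11.07), against 10.79 to 10.81 in control shoots. The part of these markers in the falls of IAA17 was not tested.

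The size of these falls was not shared by a further probe set, which by its name is designed on the same target sequence as that of IAA17. It had 10.95, 11.09 and 11.08 in –Fe–Zn shoots, 13.15, 13.11 and 13.06 in –Fe shoots, 12.23, 12.91 and 12.76 in –Zn shoots and 13.83, 13.89 and 13.91 in control shoots. Every stress array again lay below every control array. Its change was -2.83 in –Fe–Zn (SE 0.14, adjusted p = 5.3e-11), -0.77 in –Fe (SE 0.14, adjusted p = 0.00035) and -1.24 in –Zn (SE 0.14, adjusted p = 2.2e-06). The direction was thus the same on both probe sets in all 3 shoot comparisons, and the size of the change differed.

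The middle probe set of the cyclophilin control gene, which reads the transcript farther from its 3′ end, moved with IAA17 in –Fe–Zn and –Zn shoots and against it in –Fe shoots. It was 2.77 ± 0.336 in –Fe–Zn, 9.18 ± 0.344 in –Fe, 2.76 ± 0.243 in –Zn and 4.84 ± 0.358 in the control (SD, n = 3 each), whereas the 3′ probe set of the gene lay between 13.6 and 13.8 in every shoot group. A covariate, chosen after seeing the data, was the difference between middle and 3′ control probe sets, averaged over cyclophilin, ubiquitin and Gapdh. With it, the change of IAA17 was -6.81 in –Fe–Zn, -2.11 in –Fe and -6.42 in –Zn shoots. The slope of this covariate comes from the spread within groups, most of which is in the root –Fe–Zn arrays.

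**Figure D3:**
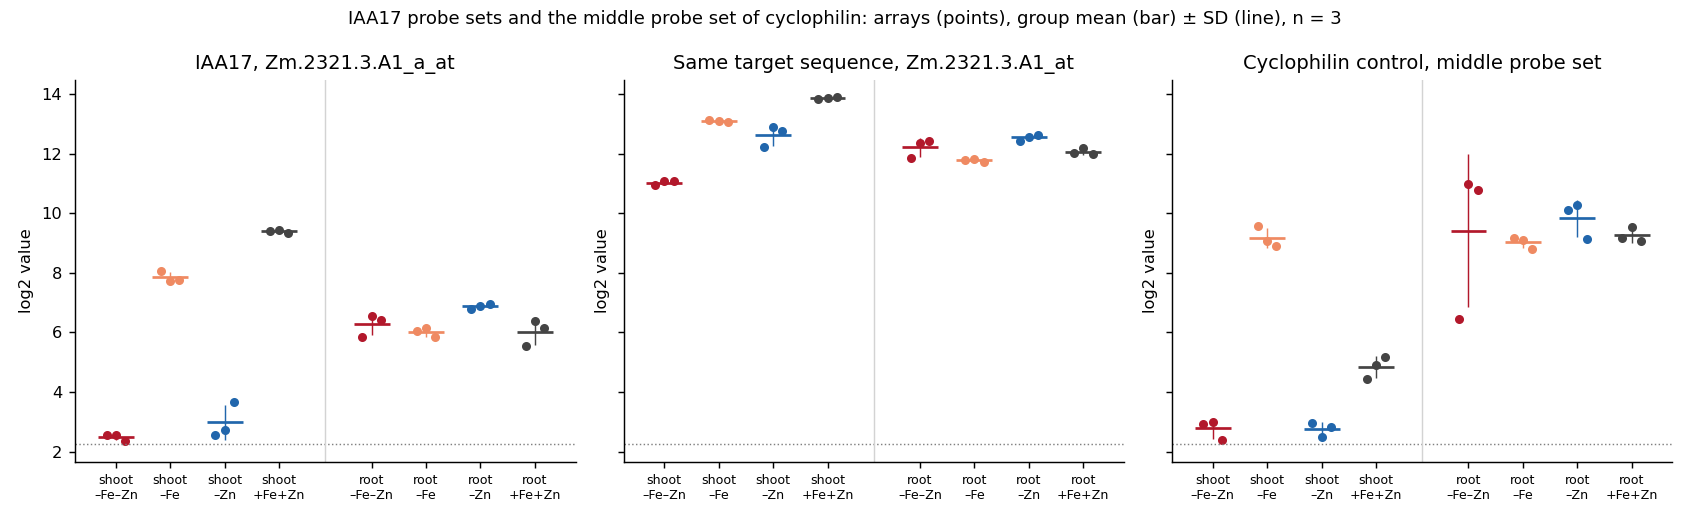
Log2 value of the IAA17 probe set, of a further probe set of the same target sequence and of the middle probe set of the cyclophilin control on the 24 arrays (points), with group mean (bar) and SD (line, n = 3). Both IAA17 probe sets are lower in all 3 stressed shoot groups than in control shoots (-6.91 and -2.83 in –Fe–Zn), and the cyclophilin probe set is lowest in –Fe–Zn and –Zn shoots.

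Besides its own, the array has 8 probe sets with the cluster number of IAA17, that of the same target included, and they can belong to other transcripts of the Aux/IAA family. One, of the first part of the cluster, changed by -1.71 in –Fe–Zn shoots (adjusted p = 2.1e-08), by -0.19 in –Fe shoots (adjusted p = 0.39) and by -1.42 in –Zn shoots (adjusted p = 3.5e-07). Another, with the suffix a, changed by -3.85 in –Fe–Zn, 1.52 in –Fe and -3.90 in –Zn shoots, all called. A probe set named for the same target sequence as that last one, without the suffix, rose in all 3, by 1.64 in –Fe–Zn, 1.10 in –Fe and 0.65 in –Zn shoots. Probe sets of this cluster therefore differed in direction within the same shoots, and even within 1 target sequence. One of the sixth part of the cluster changed by 0.40 in –Fe–Zn (adjusted p = 0.026), by -0.46 in –Fe (adjusted p = 0.016) and by 0.16 in –Zn shoots (adjusted p = 0.46), and its root changes were not called. A pair of probe sets with S in their names stayed between 2.24 and 2.56, and no change of theirs was called.

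In roots IAA17 had 5.85, 6.57 and 6.42 in –Fe–Zn, 6.05, 6.14 and 5.84 in –Fe, 6.78, 6.88 and 6.97 in –Zn and 5.53, 6.39 and 6.15 in the control. Only the –Zn arrays lay clear of the control, by a rise of 0.85 (SE 0.25, adjusted p = 0.019). The rise was 0.61 without control replicate 1 (adjusted p = 0.12), and it was not called without –Zn replicate 2 (adjusted p = 0.051) or 3 (adjusted p = 0.066), nor after quantile normalization (0.75, adjusted p = 0.06). The probe set of the same target sequence rose by 0.48 in –Zn roots (SE 0.14, adjusted p = 0.022). Changes of IAA17 in –Fe–Zn (0.26, adjusted p = 0.52) and –Fe roots (-0.01, adjusted p = 1) were not called.

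IAA24, the third Aux/IAA gene, ran between 2.88 and 4.57 on the 24 arrays. Its root values were 3.49, 2.99 and 2.88 in –Fe–Zn, 3.41, 3.36 and 3.58 in –Fe, 3.95, 4.42 and 4.15 in –Zn and 2.88, 3.18 and 3.35 in the control. The –Zn arrays lay above all other root arrays, a rise of 1.04 over the control (SE 0.21, adjusted p = 0.0012) that was called whichever array of the pair of groups was left out. The changes in –Fe–Zn (-0.02, adjusted p = 1) and –Fe roots (0.31, adjusted p = 0.37) were not called.

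In shoots IAA24 had 3.53, 3.54 and 3.96 in –Fe–Zn, 4.57, 3.97 and 4.42 in –Fe, 3.8, 4.15 and 4.52 in –Zn and 4.24, 4.05 and 4.39 in the control. The –Fe–Zn arrays lay below the control, by 0.55 (SE 0.21, adjusted p = 0.04), and the other groups overlapped it. This fall was not called without control replicate 1 or 3 or –Fe–Zn replicate 1 or 2 (-0.54 to -0.47, adjusted p = 0.087 to 0.14), nor in the fit of the shoot arrays alone (adjusted p = 0.075). A probe set of another part of the same cluster changed by 0.85 in –Zn roots (SE 0.33, adjusted p = 0.078), by -1.43 in –Fe–Zn shoots (SE 0.33, adjusted p = 0.0015) and by -0.92 in –Fe shoots (SE 0.33, adjusted p = 0.039).

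AIR12 is named after auxin-induced in root cultures 12, an Arabidopsis gene whose product is a b-type cytochrome at the plasma membrane. In roots it had 8.32, 9.04 and 8.64 in –Fe–Zn, 9.97, 10.04 and 9.89 in –Fe, 10.52, 10.49 and 9.83 in –Zn and 9.72, 9.84 and 9.34 in the control. The –Fe–Zn arrays were the lowest and did not overlap the control, with a fall of 0.97 (SE 0.29, adjusted p = 0.016). This fall was not called without control replicate 1 or 2 or –Fe–Zn replicate 1 (-0.92 to -0.80, adjusted p = 0.052 to 0.067), nor after quantile normalization (-0.75, adjusted p = 0.057). The changes in –Fe (0.33, adjusted p = 0.57) and –Zn (0.64, adjusted p = 0.13) were not called.

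In shoots AIR12 had 2.76, 3.98 and 2.74 in –Fe–Zn, 5.38, 5.19 and 5.16 in –Fe, 2.73, 2.89 and 2.74 in –Zn and 3.44, 2.79 and 2.77 in the control. All 3 –Fe arrays stood above every other shoot array, a rise of 2.24 over the control (SE 0.29, 4.72-fold, adjusted p = 5.7e-06), while the other 3 groups overlapped one another near the lowest value of the table. Among shoot groups the cyclophilin middle probe set was also highest in –Fe. With the covariate for the control probe sets, the rise of AIR12 was 1.72 (SE 0.43, adjusted p = 0.0046). The changes in –Fe–Zn (0.16, adjusted p = 0.79) and –Zn (-0.22, adjusted p = 0.68) were not called.

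The protein encoded by abp1 binds auxin and resides mostly in the endoplasmic reticulum, and it was first described in maize. In shoots abp1 had 5.27, 4.94 and 4.81 in –Fe–Zn, 5.76, 5.47 and 5.49 in –Fe, 4.35, 4.94 and 3.88 in –Zn and 4.82, 4.75 and 4.75 in the control. Only the –Fe arrays lay clear above the other groups, by 0.80 over the control (SE 0.21, adjusted p = 0.0056). With the covariate for the control probe sets this rise was 0.62 (SE 0.33) and was not called (adjusted p = 0.18). The change in –Zn was -0.38 (adjusted p = 0.17) and reached -0.66 without –Zn replicate 2 (adjusted p = 0.0099), and the change in –Fe–Zn was 0.24 (adjusted p = 0.43).

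In roots abp1 had 3.23, 3.67 and 3.49 in –Fe–Zn, 2.90, 2.90 and 3.08 in –Fe, 3.28, 2.97 and 3.28 in –Zn and 3.33, 3.31 and 3.86 in the control. The –Fe and –Zn arrays lay below the control and the –Fe–Zn arrays overlapped it, but no change was called (-0.03, -0.54 and -0.32 in –Fe–Zn, –Fe and –Zn, adjusted p = 1, 0.071 and 0.38).

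The 3 genes that fell in –Fe–Zn roots were read on the arrays with the high BioB and 18S rRNA values. With the covariate for the control probe sets, the changes there were -1.52 for PIN1b (adjusted p = 0.00026), -1.33 for IAA13 (adjusted p = 7.2e-05) and -1.21 for AIR12 (adjusted p = 0.0063). The part of BioB and 18S rRNA in these falls was not tested.

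Shoots and roots differed in nearly all of these genes. In –Fe–Zn, –Fe and +Fe+Zn seedlings 6 of 6 were called between shoot and root (51.1%, 52.8% and 51.5% of all probe sets), and in –Zn seedlings 5 of 6 were (54% of all). All but abp1 come from the study's table, where the root –Fe–Zn folds nearly equal the control differences given here. These counts were thus partly fixed by the choice of genes and are not independent evidence. In the controls, the difference of shoot minus root was -6.63 for AIR12 (SE 0.29, 99.2-fold), -3.2 for IAA13 (SE 0.19) and -2.42 for PIN1b (SE 0.25). It was 3.38 for IAA17 (SE 0.25), 1.28 for abp1 (SE 0.21) and 1.09 for IAA24 (SE 0.21). AIR12, IAA13 and PIN1b were lower and abp1 was higher in shoots in all 4 treatments.

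IAA17 alone of the 6 was called in both directions between the organs. Its difference of shoot minus root was -3.78 in –Fe–Zn, 1.84 in –Fe and -3.89 in –Zn, against 3.38 in +Fe+Zn (SE 0.25 each, adjusted p at most 3.9e-06). For IAA24 the difference of shoot minus root was 0.56 in –Fe–Zn (adjusted p = 0.032), 0.87 in –Fe (adjusted p = 0.0015) and -0.02 in –Zn (adjusted p = 1). For PIN1b it was -0.67 in –Fe–Zn (SE 0.25, adjusted p = 0.034), against -2.42 in +Fe+Zn. In –Fe–Zn the call of PIN1b was lost without root replicate 1 or 3 or any 1 shoot replicate (-0.67 to -0.43, adjusted p = 0.066 to 0.18), and that of IAA24 without root replicate 2 or 3 or shoot replicate 3 (0.42 to 0.50, adjusted p = 0.094 to 0.14).

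Ordered by group mean, PIN1b ran from root +Fe+Zn (8.467) through root –Zn (8.147), root –Fe (7.761) and root –Fe–Zn (6.668) to shoot –Zn (6.335), shoot +Fe+Zn (6.049), shoot –Fe–Zn (5.995) and shoot –Fe (5.415), and of neighbours only root –Fe and root –Fe–Zn differed (adjusted p = 0.00227). For IAA17 the order was shoot +Fe+Zn (9.405), shoot –Fe (7.853), root –Zn (6.874), root –Fe–Zn (6.281), root +Fe+Zn (6.022), root –Fe (6.012), shoot –Zn (2.984) and shoot –Fe–Zn (2.496). Here shoot +Fe+Zn differed from shoot –Fe and shoot –Fe from root –Zn, no root group differed from the next root group, root –Fe differed from shoot –Zn by 3.03, and the lowest pair did not differ (adjusted p = 0.19). For AIR12 the gap between the lowest root group, –Fe–Zn, and the highest shoot group, –Fe, was 3.42 (adjusted p = 8.96e-09). For abp1 the smallest gap between the organs, shoot –Zn over root +Fe+Zn, was 0.894 (adjusted p = 0.00133). For IAA24 no neighbours differed in the whole order.

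The changes of shoot and root under 1 stress were also set against each other, as a tissue by stress interaction. In –Fe–Zn 3 of 6 genes were called (42.1% of all probe sets), in –Fe 3 of 6 (30.4% of all) and in –Zn 2 of 6 (35.2% of all). IAA17 was called in all 3, PIN1b in –Fe–Zn, AIR12 in –Fe–Zn and –Fe, abp1 in –Fe and IAA24 in –Zn, and IAA13 in none.

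Whether lack of both metals changed a gene by more or less than the sum of the single changes was tested as an Fe by Zn interaction in the same model. In shoots 3 of 6 genes were called (24.4% of all probe sets) and in roots 3 of 6 (35.7% of all). AIR12 was called in both organs. In shoots its change in –Fe–Zn was 0.16, against a sum of 2.02 for the single deficiencies, an interaction of -1.86 (SE 0.40, adjusted p = 0.0021). In roots the change was -0.97, against a sum of 0.97, an interaction of -1.94 (SE 0.40, adjusted p = 0.00092). The rise of AIR12 in iron-deficient shoots was thus not seen when zinc was withdrawn as well. The difference between middle and 3′ control probe sets was also highest in –Fe shoots. It was -6.27 there, against -9.81 in –Fe–Zn, -9.27 in –Zn and -9.26 in control shoots. The interactions were not fitted with this difference as a covariate, so its part in that of AIR12 was not tested.

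IAA24 in roots changed by -0.02 in –Fe–Zn, against a sum of 1.35, an interaction of -1.37 (SE 0.29, adjusted p = 0.0012). IAA13 in shoots changed by -0.87, against a sum of 0.01 made of a rise in –Zn and a lower value in –Fe. Its interaction of -0.89 (SE 0.27, adjusted p = 0.023) was not called without control replicate 2 or 3 or –Fe–Zn replicate 1 or 3 (adjusted p = 0.051 to 0.068). The interaction of IAA17 in shoots, 1.06 (SE 0.35, adjusted p = 0.035), rests on values close to the floor, where a further fall cannot be read. It was not called without any 1 of 9 arrays: the control replicates 1, 2 and 3, –Fe replicates 2 and 3, –Fe–Zn replicates 1 and 2 and –Zn replicates 1 and 2 (0.86 to 1.09, adjusted p = 0.054 to 0.096).

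For abp1 in roots the interaction was 0.83 (SE 0.30, adjusted p = 0.037). It was not called without any 1 of 6 arrays: control replicate 3, –Fe replicates 1 and 2, –Fe–Zn replicates 2 and 3 and –Zn replicate 2 (0.65 to 0.81, adjusted p = 0.063 to 0.11). The interaction of PIN1b in roots was -0.77 (SE 0.36, adjusted p = 0.11), and it was called without –Fe–Zn replicate 1 (-1.02, adjusted p = 0.025) or replicate 3 (-1.0, adjusted p = 0.038). The remaining 5 interactions had an adjusted p of 0.1 or more.

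**Figure D4:**
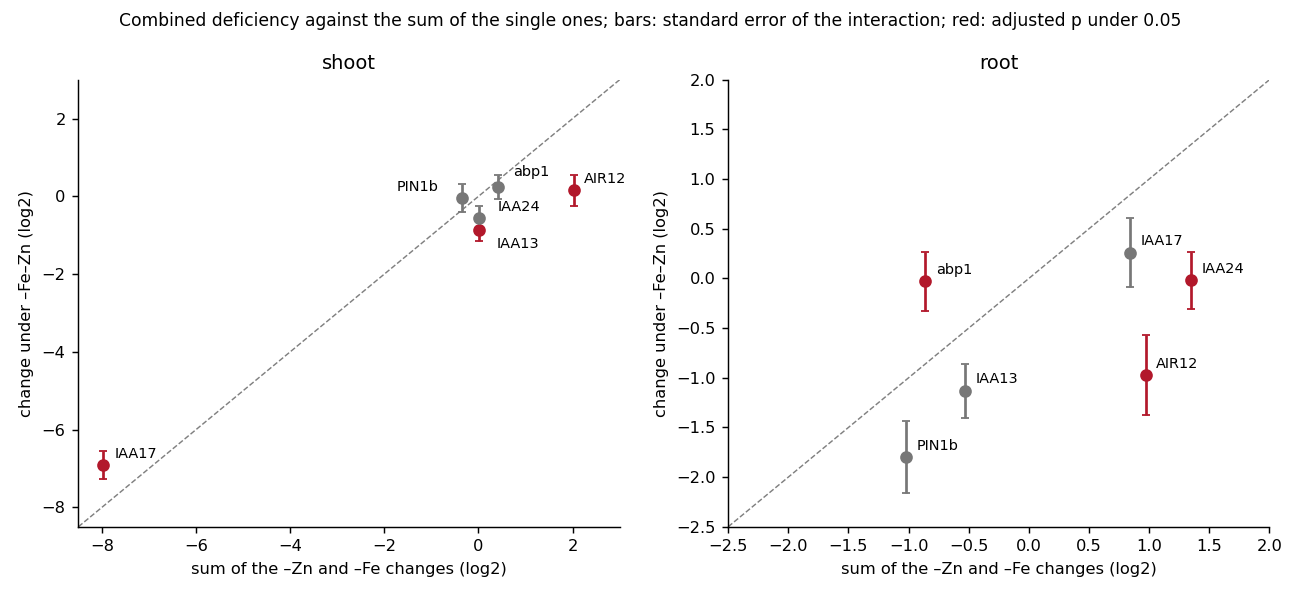
Change of each gene in –Fe–Zn (vertical axis, log2) against the sum of its changes in –Zn and –Fe (horizontal axis, log2), in shoots (left) and roots (right). Points on the dashed line equal the sum, bars are the standard error of the interaction and red points have an adjusted p under 0.05. AIR12 lies below the line in both organs.

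The other auxin genes were 6 probe sets: yuc, abp4, BA1, aux1 and arf1, taken from the array annotation by name, and an auxin-responsive protein gene from the study's table. In roots 1 of the 6 rose and 0 fell in each of –Fe–Zn, –Fe and –Zn (8.09%, 14.7% and 13.4% of all probe sets rose). In shoots 0 rose and 3 fell in –Fe–Zn, 0 rose and 2 fell in –Fe, and 1 rose and 2 fell in –Zn (22.2%, 16.4% and 19% of all fell, and 20.3% rose in –Zn). Those that fell were arf1, abp4 and the auxin-responsive protein gene. The change of arf1 was -2.12 in –Fe–Zn, -1.32 in –Fe and -1.52 in –Zn, and that of abp4 was -1.41 in –Fe–Zn and -1.38 in –Zn. The symbol arf1 is given as the annotation has it, and whether it stands for an auxin response factor is not settled. The rise in –Zn shoots was that of yuc, named as the YUCCA enzymes of auxin synthesis are, at 2.52, 2.82 and 2.24 against 2.24 on all 3 control arrays, so the groups overlapped at the floor (0.29, SE 0.10, adjusted p = 0.037). The probe set aux1 was between 9.38 and 10.92 on root arrays, and no stress change of it was called in either organ. In control shoots it was at 2.25, beside the lowest value, so a fall in shoots could not be read. The gene that rose in roots was the auxin-responsive protein gene whose probe set shares its cluster number with IAA17. Since the study listed it as stress-responsive from these arrays, its changes are not independent evidence. It rose by 0.41 in –Fe–Zn (adjusted p = 0.021), 0.75 in –Fe (adjusted p = 0.00019) and 1.06 in –Zn roots (adjusted p = 7.1e-06), and it changed by -2.00 in –Fe–Zn (adjusted p = 7e-10), -1.96 in –Fe (adjusted p = 1.3e-09) and -0.05 in –Zn shoots (adjusted p = 0.92). Like IAA17, this transcript fell in both shoot groups without iron. In –Zn shoots its change was not called, where IAA17 changed by -6.42.

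The gene abp4, a relative of abp1 that also encodes an auxin-binding protein, had 8.24, 6.89 and 7.70 in –Fe–Zn, 9.25, 9.07 and 9.16 in –Fe, 7.59, 7.67 and 7.66 in –Zn and 9.16, 8.97 and 8.95 in control shoots. It fell by 1.41 in –Fe–Zn (SE 0.21, adjusted p = 2.3e-05) and by 1.38 in –Zn (SE 0.21, adjusted p = 3.9e-05), and no array of either overlapped the control. Its change in –Fe shoots was 0.13 (adjusted p = 0.92), where abp1 rose. The probe set named arf1, a symbol used both for auxin response factors and for another family, changed in shoots by -2.12 in –Fe–Zn, -1.32 in –Fe and -1.52 in –Zn (SE 0.28 each, all called). The branching gene BA1 was at the lowest value on all 24 arrays.

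By the rule for likeness, the annotated genes whose values ran most like each member over the 24 arrays were named, 3 for each. These Pearson correlations mix the difference between organs with that between treatments and are descriptions. For PIN1b they were the cellulose synthase gene cesa8 (0.97), the tubulin gene TUBB2 (0.96) and rop3 (0.96). For IAA13 they were the tonoplast aquaporin gene tip2b (0.96), ATP2 (0.96) and piip1 (0.96). For AIR12 they were csu503(met) (0.99), frk2 (0.98) and the ribosomal protein gene rps13 (0.98).

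For IAA17, whose pattern is not that of an organ, they were the glyoxalase gene glx1 (0.97), the proton pump gene vpp3 (0.94) and LOC542170 (0.93). For abp1 they were crtRB1 of carotenoid synthesis (0.94), LOC100037827 (0.93) and the cytokinin oxidase gene cko3 (0.93). For IAA24 the highest values were lower, at 0.80 for TIDP3321, 0.80 for the fatty acid desaturase gene fad7 and 0.76 for FAD8. Among the 6 themselves over the 12 shoot arrays, PIN1b ran against abp1 (-0.90) and AIR12 (-0.87), and AIR12 ran with abp1 (0.77). Over the 12 root arrays the highest was IAA13 with AIR12 (0.70).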

How the data were processed

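RNA of root and shoot was biotin-labelled and hybridised to 24 Affymetrix GeneChip Maize Genome Arrays. By the paper's methods, the authors made the deposited log2 values with GCRMA, whereas the notes of the submitters list RMA with affy and limma, and no version, so the background correction is not settled. The values were used as deposited, for all 17734 probe sets, 113 of them control probe sets. Arrays were assigned to the 8 groups from their labels, and no column of another sample was present. In R 4.3.3 with limma 3.58.1, lmFit and eBayes gave 1 linear model of the 24 arrays with a mean for each of 8 groups. Stress against control, shoot against root, Fe by Zn and tissue by stress were contrasts of it, called where p, adjusted over all probe sets by Benjamini-Hochberg, was under 0.05. Every adjusted p is from limma. An exact permutation test of 3 against 3 arrays cannot give a p under 0.10, so none was used. The model was tested on simulated arrays. The number of arrays limits the precision.

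The 6 genes and all lists were chosen with earlier results of these data known. All 6 are named in every comparison, with the probe sets of the same cluster number (10 others), 6 other auxin probe sets (5 by their annotation and 1 from the study's table), and for each gene the 3 annotated genes most like it by Pearson correlation. Of the probe sets, 1452 have 1 gene in the annotation, 1 has several and 16281 have none. RefSeq names come from the Zm-B73-REFERENCE-NAM-5.0 table, without coordinates. Probe, promoter and protein sequences were not used here. Leaf and root markers checked the tissue labels: 16 of 21 leaf markers were higher on all shoot arrays than on all root arrays. Of the 9 root markers, 3 were higher on all root arrays than on all shoot arrays. The array means of the 9 were 3.65 to 4.1 in shoots and 4.26 to 5.24 in roots. Alternatives are given in the closing section, and the covariate from control probe sets and the other probe sets of a cluster were added after seeing the data.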

Additional observations from a re-analysis of the deposited data

Results flagged for a closer look

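For 5 of the 6 genes the change under stress differed between shoot and root by a test of the difference itself, in 8 of 18 comparisons (tissue by stress interaction in limma, adjusted p under 0.05). The same test called 42.1% of all probe sets in –Fe–Zn, 30.4% in –Fe and 35.2% in –Zn. Each value here is the shoot change minus the root change on the log2 scale. For IAA17 it was -7.17 in –Fe–Zn (SE 0.35, adjusted p = 5.3e-11), -1.54 in –Fe (SE 0.35, adjusted p = 0.0025) and -7.27 in –Zn (SE 0.35, adjusted p = 9.4e-11), and it fell in shoots and not in roots in all 3. For IAA24 it was -1.11 in –Zn (SE 0.29, adjusted p = 0.0063), where the root value rose. In –Fe it was 1.91 for AIR12 (SE 0.40, adjusted p = 0.0013) and 1.34 for abp1 (SE 0.30, adjusted p = 0.0019), with the rise in the shoot. The level of AIR12 itself was lower in –Fe shoots than in –Fe roots. For PIN1b it was 1.74 in –Fe–Zn (SE 0.36, adjusted p = 0.00069), where the root value fell by 1.80 and the shoot value changed by -0.05.

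For AIR12 in –Fe–Zn it was 1.13 (SE 0.40, adjusted p = 0.032). This call was lost without any 1 of 7 arrays: root control replicates 1 and 2, root –Fe–Zn replicates 1 and 3, shoot control replicates 2 and 3 and shoot –Fe–Zn replicate 2 (0.72 to 1.12, adjusted p = 0.055 to 0.083). It was also lost after median centring (0.78, adjusted p = 0.1) and quantile normalization (0.66, adjusted p = 0.2).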

How the results depend on the processing

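Of the 14 calls in the comparisons of stress with control, 10 were kept whichever array was left out, and the other 4 (IAA13 in –Zn shoots, IAA24 in –Fe–Zn shoots, IAA17 in –Zn roots and AIR12 in –Fe–Zn roots) were lost without at least 1 array. Leaving out 1 array at a time, the number of the 6 genes called was 2 to 3 in –Fe–Zn, 3 in –Fe and 1 to 2 in –Zn shoots, and 2 to 3 in –Fe–Zn, 1 in –Fe and 1 to 2 in –Zn roots. In –Fe–Zn shoots the main count of 3 became 1 with a 2-fold minimum, 1 at the methods' threshold (unadjusted p under 0.05 and 2-fold) and 6 against the root control. In –Fe shoots the count of 3 became 5 in a fit of the 2 groups, with median centring, without dim probe sets (those under the 40th percentile in every group) and without the –Fe–Zn arrays. In –Zn shoots the count of 2 became 1 with a 2-fold minimum, at the methods' threshold, in a fit per tissue and with median centring. In –Fe–Zn roots the count of 3 became 1 in a fit of the 2 groups and 6 against the shoot control. In –Fe roots the count of 1 became 0 with a 2-fold minimum and at the methods' threshold, 3 without dim probe sets, and 2 in a fit of the 2 groups, with an intensity trend and robust prior, with median centring, with quantile normalization and without the –Fe–Zn arrays. In –Zn roots the count of 2 became 1 with a 2-fold minimum, at the methods' threshold, in a fit of the 2 groups and with quantile normalization, and 4 without the –Fe–Zn arrays. Apart from the methods' threshold, the share of all probe sets called was not computed for these settings. The shifts therefore say nothing particular to these 6 genes. Their cause was not tested beyond the stricter threshold and the fewer arrays or probe sets themselves.

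The study's table does not rest in all its columns on the assignment of arrays to groups used here. Leaf markers went with the tissue labels used here, and labels for zinc supply were not checked by a marker. The –Fe–Zn arrays were also set against the control of the other tissue or exchanged between root and shoot. Directions turned, as the difference between organs enters by construction, so this cannot test the tissue labels of these arrays. Against the shoot control, the changes of the root –Fe–Zn arrays were 5.66 for AIR12, 2.07 for IAA13, 0.62 for PIN1b and -3.12 for IAA17. Against the root control, the changes of the shoot –Fe–Zn arrays were -6.47 for AIR12 and 0.54 for IAA24. Exchanged, the Fe by Zn interaction in shoots was 3.64 for AIR12 and 2.06 for IAA13. The difference of shoot minus root in –Fe–Zn was 5.50 for AIR12, 2.95 for IAA13, 3.78 for IAA17, 0.67 for PIN1b, -0.56 for IAA24 and -1.55 for abp1, and the tissue by stress interaction was 0.40 for IAA17 and -2.82 for abp1. The other probe set of the IAA24 cluster had -0.92 in –Fe shoots, where IAA24 had 0.09. A sign that turned where neither value was called is not counted.

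Between arrays of the same replicate number, the correlation of deviations from group means lay between -0.123 and 0.292. Arrays of different replicate numbers were not compared, so whether the numbers pair arrays is not settled. The main model does not pair them. With the replicate number as a block, the genes called were 3, 4 and 2 in –Fe–Zn, –Fe and –Zn shoots and 3, 1 and 2 in –Fe–Zn, –Fe and –Zn roots. The share of all probe sets called with the block was not computed. The block added IAA13 in –Fe shoots (adjusted p = 0.048) and took away the interaction of abp1 in roots (0.83, adjusted p = 0.053). Signal over background is the limit for IAA17, AIR12, IAA24 and abp1 (in roots) in the groups close to 2.24, where a fall cannot be followed further.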
